A study of Mus musculus with 4 samples.

Results

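The 9 genes described here are regulators and markers of naive and memory T cells: Tcf7, Lef1, Satb1, Myb, Foxp1, Ets1, Bcl11b, Dapl1 and Igfbp4. They were taken by name from the deposited table of 24312 genes, where all 9 were listed, and each is described whatever its value. The set was chosen with earlier results of these data known, so its counts beside all genes are no independent support. Poly(A) RNA was sequenced from mouse P14 CD8 T cells on a C57BL/6 background, which carry a transgenic T cell receptor for the gp33 peptide of lymphocytic choriomeningitis virus. All cells received 100 ng/ml gp33 and were spin transduced a day later with a retrovirus that also expresses GFP. They had another day of activation, 2 days of expansion in 10 ng/ml IL-2, a sort for CD8+ GFP+ cells and 2 last days in 1 ng/ml IL-2. The growth protocol names 10 ng/ml IL-2 again, after gp33 and before 1 ng/ml, so its use may not be limited to the expansion. The MIG group (2 libraries) carried the empty vector MSCV-IRES-GFP, and the BATF group (2 libraries) carried the same vector with BATF, which binds DNA as an AP-1 factor together with JUN proteins. BATF in this design is driven by a retrovirus in cultured cells, and the labels do not say whether the libraries of a group came from separate mice, so the p-values rest on a spread that may be technical.

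As background, TCF-1 (the product of Tcf7) and LEF-1 are closely related HMG-box factors that bind the same DNA motif and can recruit beta-catenin as a coactivator or Groucho/TLE proteins as corepressors. Naive and memory CD8 T cells hold TCF-1 at high levels, and terminal effector cells lose it. Satb1, Ets1, Bcl11b and Foxp1 encode DNA-binding proteins that keep T cell identity or quiescence, Myb encodes a factor of progenitors and memory precursors, and Dapl1 and Igfbp4 are transcripts typical of naive CD8 T cells.

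The libraries held between 19004726 and 24795707 assigned fragments, and each library had 10 or more fragments on 12871 to 13227 genes. Batf itself stood at 36.1 and 26.5 CPM (counts scaled to library size, here by the trimmed mean of M values) in the MIG libraries and at 1342 and 934 in the BATF libraries. The 6 CD8 T cell markers summed to 2778 and 2824 CPM in MIG and to 2238 and 2504 in BATF. Of these, Cd8a, Cd8b1, Cd3d and Cd3e were lower in both BATF libraries, with log2 fold changes of −0.46, −0.29, −0.19 and −0.205, while Cd3g and Cd2 overlapped. The NK cell markers Ncr1 and Klrb1c summed to at most 0.422 CPM, and 4 of 5 B cell markers and 4 of 6 myeloid markers, among them Lyz2, Csf1r and Cd14, were under 1 CPM in all 4 libraries. The B cell list summed to 11.9 to 18.0 CPM, nearly all of it Cd79b, and the erythroid list to at most 0.685 CPM. The myeloid list summed to 26.7 and 26.0 CPM in MIG and 42.7 and 34.8 in BATF, most of it Itgax, which activated CD8 T cells can also express. The list for CD4 and regulatory T cells summed to 24.8 and 20.5 CPM in MIG and 45.9 and 36.9 in BATF, most of it Zbtb7b. The part of these 2 lists and of the CD8 T cell list in the results below was not tested.

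Of the 9 genes, 1 changed with added BATF: Myb rose 3.54-fold. The other 7 that could be tested all had negative log2 fold changes, from −0.16 (Lef1) to −0.91 (Tcf7), and did not pass. Tested means that a gene had enough fragments for edgeR's quasi-likelihood test, and passing means an adjusted p under 0.05 (Benjamini-Hochberg over 13008 genes). Over all genes tested, 0.884% were called upward and 0.208% downward. The median log2 fold change was −0.22 over the 8 tested genes of the set and −0.01 over all genes tested, and 51.5% of all genes tested had a negative value. In 4 of the 8 both BATF libraries lay below both MIG libraries, against 19.4% of all genes tested. In 1 of the 8, Myb, both lay above, against 19.2% of all genes tested. The groups overlapped in the other 3, Lef1, Satb1 and Ets1. In bulk RNA a lower level in every cell and a smaller share of cells with the transcript cannot be told apart.

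**Figure D1:**
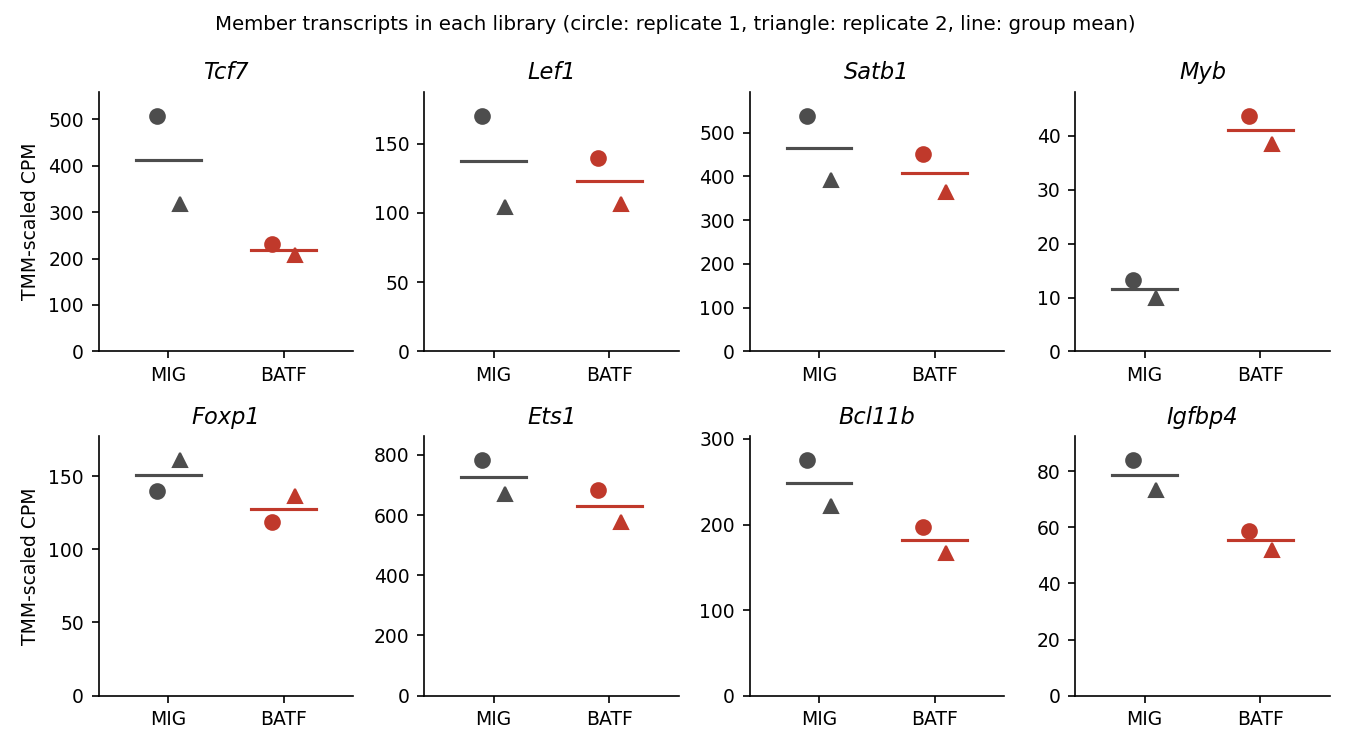
TMM-scaled CPM of the 8 tested genes in the 4 libraries, 1 panel per gene, with each vertical axis starting at 0; circles are replicate 1, triangles replicate 2 and lines group means. Tcf7 runs from 508 and 318 in MIG to 232 and 207 in BATF, Myb from 13.3 and 9.90 to 43.8 and 38.6, and in 7 of the 8 panels the circle lies above the triangle in both groups.

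Tcf7 had the set's highest mean FPKM in MIG (a level scaled to transcript length) and the largest negative difference. It stood at 508 and 318 CPM in MIG replicates 1 and 2, and at 232 and 207 CPM in BATF replicates 1 and 2. Both BATF libraries lay below both MIG libraries, but the MIG libraries themselves differed by 0.68 on the log2 scale, and 8.63% of all genes tested differed more between those libraries. The log2 fold change was −0.91 ± 0.20 (SE, n = 2 per group), a mean of 413 ± 134 CPM (SD) in MIG against 219 ± 17.4 in BATF, with an unadjusted p of 0.0031 and an adjusted p of 0.123 by edgeR. The adjusted p fell below the threshold when 1 library was left out, at 0.0299 without MIG replicate 1 (log2 fold change −0.53), 1.91e-06 without MIG replicate 2 (−1.22) and 0.00381 without BATF replicate 1 (−0.997), but not without BATF replicate 2 (0.0877, −0.84). Such a fit takes the spread of the single remaining library from the opposite group. Of all genes tested, 1.79% were called without MIG replicate 1 or without BATF replicate 2, 2.00% without BATF replicate 1 and 4.27% without MIG replicate 2. With all 4 libraries, Tcf7 passed in edgeR when no filter on low counts was used (adjusted p = 0.00561), and it did not pass in DESeq2 (0.219) or in limma on log2(FPKM + 1) (0.231) and log2(FPKM + 0.1) (0.188).

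Lef1, the paralog of Tcf7, showed no separation of the groups. It stood at 170 and 105 CPM in MIG and at 140 and 107 in BATF, so that the first MIG library was highest and the second lowest. Its log2 fold change was −0.16 ± 0.23 (SE), at an edgeR adjusted p of 0.926. The sign turned when MIG replicate 1 was left out (0.24) or BATF replicate 2 (0.02), and Lef1 passed at −0.48 without MIG replicate 2 (edgeR adjusted p = 0.0382). The MIG libraries differed by 0.70 for Lef1, about as much as they did for Tcf7, while the BATF libraries differed by 0.39 for Lef1 and by 0.16 for Tcf7.

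Because Tcf7 and Lef1 both varied between the MIG libraries, their ratio within a library was also taken from the deposited FPKM (fragments scaled to transcript length and library size), a pairing chosen after the values were seen. Tcf7 exceeded Lef1 3.48-fold and 3.43-fold in the MIG libraries and 1.94-fold and 2.25-fold in the BATF libraries. The ratio was thus close to equal in the MIG libraries, whose levels of either gene differed most, and lower in both BATF libraries. The ratio of Tcf7 to any other gene was lower in both BATF libraries for 88.2% of genes tested, so this direction is not particular to Lef1.

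Satb1, a chromatin organiser of T cells, followed Lef1 in pattern. It stood at 539 and 392.5 CPM in MIG and at 452 and 365 in BATF, with the groups overlapping. Satb1 had a log2 fold change of −0.19 ± 0.17 (SE), at an edgeR adjusted p of 0.841, which became 0.06 without MIG replicate 1 and passed at −0.41 without MIG replicate 2 (edgeR adjusted p = 0.0404). Ets1, a winged-helix factor needed for T cell survival, stood at 784 and 671 CPM in MIG and at 683 and 577 in BATF, where the higher BATF library lay just above the lower MIG library. Its log2 fold change was −0.21 ± 0.12 (SE, edgeR adjusted p = 0.642) and −0.09 without either MIG replicate 1 or BATF replicate 2. The ratio of Satb1 to Ets1 in FPKM stayed between 0.469 and 0.553 over the 4 libraries, and the groups overlapped.

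Bcl11b, a zinc finger factor that keeps T cells from taking on NK cell features, was lower in both BATF libraries. It stood at 276 and 222 CPM in MIG and at 197 and 167 in BATF. This gave a log2 fold change of −0.45 ± 0.13 (SE), with an unadjusted p of 0.0112 and an edgeR adjusted p of 0.231. Igfbp4, which encodes a secreted binding protein of insulin-like growth factors, behaved alike in direction and size, at 84.0 and 73.3 CPM in MIG and 58.7 and 51.9 in BATF. Its log2 fold change was −0.51 ± 0.11 (SE), with an unadjusted p of 0.00252 and an edgeR adjusted p of 0.111. Without MIG replicate 2 both passed in edgeR, Bcl11b at −0.61 (adjusted p = 0.00203) and Igfbp4 at −0.61 (adjusted p = 0.00303), and neither passed with any other library left out. Igfbp4 also passed in DESeq2 (adjusted p = 0.0252) and in edgeR with no filter on low counts (0.0400), where Bcl11b did not (0.0645 and 0.0904). Bcl11b shrank to −0.29 without MIG replicate 1.

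Foxp1, a forkhead repressor that holds naive T cells in quiescence, was the exception within the set in how it varied between libraries. It stood at 140 and 161 CPM in MIG and at 119 and 137 in BATF, so replicate 2 was the higher library in both groups. For the other 7 tested genes of the set replicate 1 was the higher one in both groups. The share of all genes tested with either order was not counted. All BATF values lay below all MIG values by a narrow margin, 137 against 140 CPM. The difference on the log2 scale was −0.24 ± 0.11 (SE), at an edgeR adjusted p of 0.524, ranging from −0.34 without BATF replicate 2 to −0.14 without MIG replicate 2 or BATF replicate 1.

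Myb moved against the rest of the set. It stood at 13.3 and 9.90 CPM (325 and 204 fragments) in MIG and at 43.8 and 38.6 CPM (830 and 839 fragments) in BATF. The lowest BATF library lay well above the highest MIG library. The log2 fold change was 1.82 ± 0.17 (SE, n = 2 per group), with an edgeR adjusted p of 0.00955, and Myb passed in each of the 4 fits with a library left out, at values between 1.62 (without MIG replicate 2) and 2.06 (without MIG replicate 1). Its DESeq2 adjusted p was 4.91e-17, while limma gave 0.036 on log2(FPKM + 1) and 0.021 on log2(FPKM + 0.1).

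Dapl1, a transcript of naive CD8 T cells, was near the limit of counting. It had 2 and 9 fragments in the MIG libraries and 3 and 9 in the BATF libraries, at most 0.437 CPM, and did not enter the test. A difference between the groups was not detectable at this depth.

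**Figure D2:**
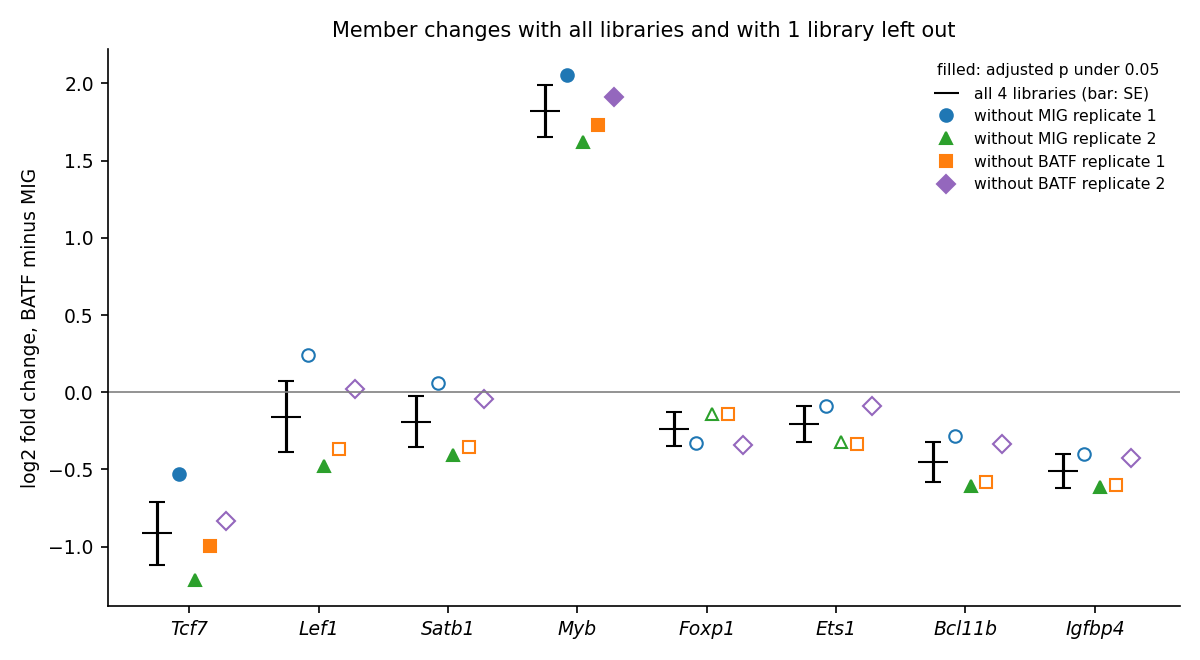
Log2 fold changes (BATF minus MIG) of the 8 tested genes; the black dash with its bar is the value from all 4 libraries with its SE, and coloured symbols are fits with 1 library left out, filled where the edgeR adjusted p is under 0.05. Myb lies between 1.62 and 2.06 and is filled throughout, Tcf7 lies between −1.22 and −0.53 and is open only without BATF replicate 2, and Lef1 and Satb1 have symbols on both sides of 0.

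Levels of different genes were compared only per transcript length, in FPKM. In MIG the order ran from Tcf7 (152 to 251 FPKM) through Ets1 (134 to 162), Satb1 (62.9 to 89.7), Lef1 (44.3 to 72.4), Igfbp4 (37.9 to 45.1), Bcl11b (28.2 to 36.2), Foxp1 (20.9 to 23.1) and Myb (2.90 to 4.04) to Dapl1 (0.220 to 1.13). Ranges over the 2 MIG libraries overlapped between Tcf7 and Ets1, between Satb1 and Lef1, and between Lef1 and Igfbp4, so those neighbours were not separated. In BATF the order was the same except at the top, where Ets1 (118 to 137 FPKM) exceeded Tcf7 (101 to 111). Tcf7 exceeded Ets1 in both MIG libraries, 1.55-fold and 1.13-fold, and was below it in both BATF libraries, at ratios of 0.810 and 0.857. Myb kept its place below Foxp1, but the gap narrowed to 11.6 to 13.0 FPKM for Myb against 17.1 to 20.0 for Foxp1.

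**Figure D3:**
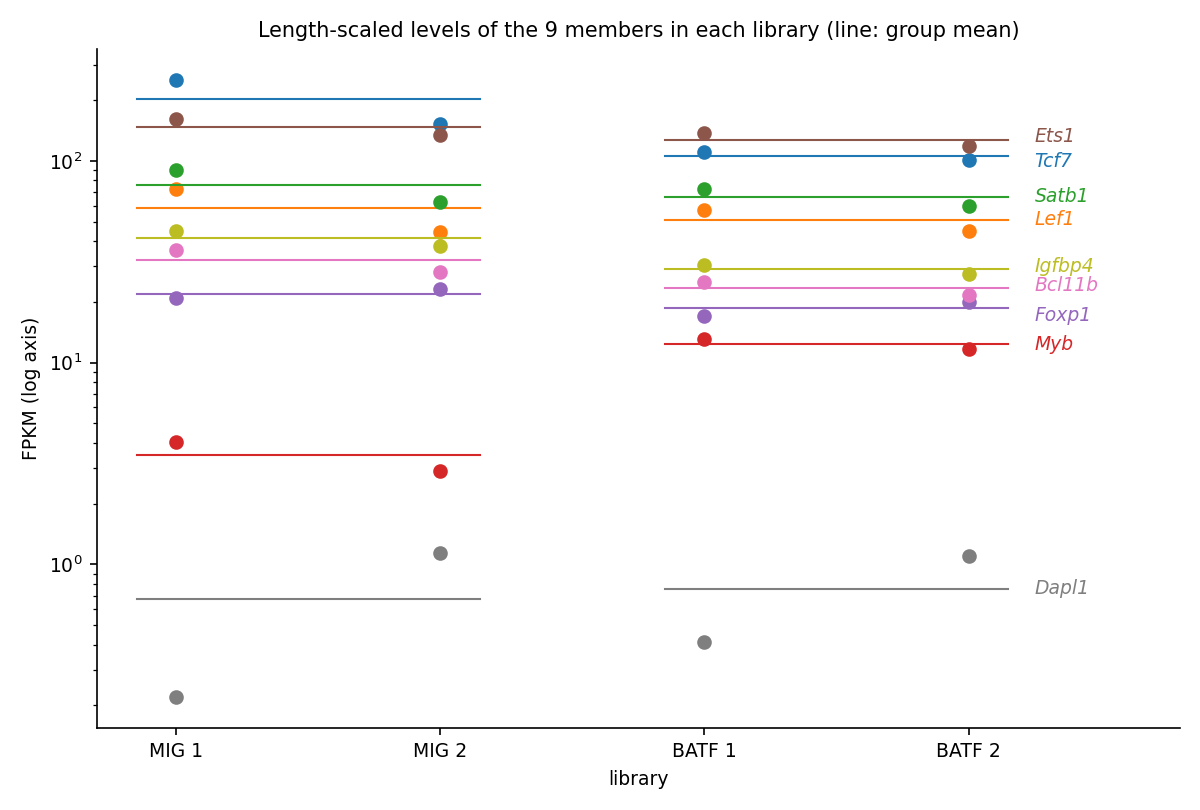
Deposited FPKM of the 9 genes in each library on a log axis, with points for libraries and lines for group means. Tcf7 lies above Ets1 in both MIG libraries and below it in both BATF libraries, and Myb moves from 2.90 to 4.04 FPKM up to 11.6 to 13.0.

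The FPKM also show the length that the authors' Cuffdiff run gave each gene, which moves with the mix of isoforms it estimated. For Tcf7 the scaled fragments per FPKM differed by 0.00518% over the 4 libraries, close to the median of 0.00588% over all genes tested. For Lef1 they differed by 3.71%, and 12.4% of genes tested differed by more than 1%. The library that stood apart was MIG replicate 2, where the length given to Lef1 was 0.969 of its median over the libraries, against 0.999 to 1.00 in the others. Myb differed by 0.988% and the other 6 genes by at most 0.37%. Tcf7 isoforms with and without the part that binds beta-catenin were not separated here.

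Mean levels of 5 CPM or more were reached by 9360 other tested genes. Among them the 5 whose pattern over the 4 libraries lay nearest to Tcf7 (Euclidean distance of centred log2 CPM) were Rasa4, Arl5c, Ret, Phf11a and Art2b, at distances of 0.054 to 0.169. Rasa4, a RAS GTPase-activating protein, stood at 13.4, 8.79, 6.17 and 5.61 CPM in MIG 1, MIG 2, BATF 1 and BATF 2. Art2b, an ADP-ribosyltransferase of the T cell surface, stood at 8.13, 5.29, 3.32 and 3.45 CPM in the same order. None of these 5 passed in edgeR (adjusted p from 0.164 to 0.283), nor did Tcf7. As they were chosen for the pattern of Tcf7, their lower level in BATF follows from that choice. Within the set, Igfbp4 and Bcl11b lay nearest to Tcf7, at distances of 0.501 and 0.502 and ranks 76 and 77, while Lef1 ranked 605. The 5 nearest to Myb were Adap1, Zbtb32, Itfg3, Piwil2 and Cass4, at distances of 0.143 to 0.366, and as they were chosen for the pattern of Myb, their higher level in BATF follows from that choice. Zbtb32, a zinc finger repressor induced in activated lymphocytes, stood at 22.2 and 20.4 CPM in MIG and 76.2 and 79.9 in BATF.

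Transcripts of the proteins through which TCF-1 and LEF-1 act, and of the Wnt pathway that feeds them, did not pass. Of 20 such genes 19 were tested and edgeR called 0. Over all genes tested 0.884% were called upward and 0.208% downward, so 0 calls do not set this list apart. At an unadjusted p under 0.05 none was higher and 1 was lower, and DESeq2 and limma on FPKM also called 0. The share of all genes tested under that unadjusted cutoff was not counted, here or for the lists below. The median log2 fold change of this list was 0.02. Aes, a short Groucho-family protein, stood at 689 and 566 CPM in MIG and 628 and 564 in BATF. Ctnnb1, which encodes beta-catenin, stood at 369 and 394 CPM in MIG and 346 and 386 in BATF, a log2 fold change of −0.06. The histone deacetylase Hdac1 and the casein kinase Csnk1a1 had log2 fold changes of −0.07 and 0.03. The gene lower at an unadjusted p under 0.05 was the corepressor Tle4, named after its values were seen, at 79.3 and 81.1 CPM in MIG and 67.0 and 64.2 in BATF, where the log2 fold change was −0.29 and the edgeR adjusted p 0.225. Without MIG replicate 2 edgeR called 1 gene of the list downward, the beta-catenin cofactor Bcl9l (log2 fold change −0.53, adjusted p = 0.00515).

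Paralogs of the set did not pass either. Of 17 listed, 14 were tested and edgeR called 0, which does not set them apart from all genes (0.884% called upward, 0.208% downward). Before adjustment, 1 was lower and 0 were higher at p under 0.05, and DESeq2 and limma on FPKM called 0. The list's median was −0.01. The ETS factors Elf1 (299 and 296 CPM in MIG, 279 and 279 in BATF), Fli1 (141 and 138, 148 and 161) and Gabpa (107 and 119, 106 and 111) had log2 fold changes of −0.09, 0.15 and −0.05. Mybl2, a cell cycle relative of Myb, stood at 112 and 97.0 CPM in MIG and 111 and 111 in BATF, with a log2 fold change of 0.08 (edgeR adjusted p = 0.898). Tcf7l1, a further TCF-family gene named after its values were seen, was low, at 0.899 and 1.116 CPM in MIG and 0.369 and 0.322 in BATF, with an edgeR adjusted p of 0.216 and a log2 fold change of −1.53.

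Other naive and memory T cell genes formed the list with calls. Of 24 tested, 6 fell, 0 rose and 18 did not pass, against 0.208% of all genes called downward, and their median log2 fold change was −0.50. This list was drawn up with earlier results of these libraries known, so its count is no independent support. Levels of Nsg2, which acts in endosomal trafficking, fell from 46.5 and 45.8 CPM to 15.5 and 15.4. Txk, a Tec family kinase, fell from 15.5 and 15.2 to 4.96 and 5.56 CPM, and Il6ra, a receptor of IL-6, from 7.76 and 6.21 to 2.69 and 1.93 CPM. Actn1, an actin crosslinker, fell from 279 and 223 to 106 and 125 CPM. Foxo1, a forkhead factor that drives naive T cell genes, fell from 225 and 228 to 146 and 150 CPM. Ccr7, the receptor for entry into lymph nodes, fell from 182 and 155 to 108 and 90.5 CPM. For these 6 the edgeR adjusted p lay between 0.00523 (Nsg2) and 0.0426 (Ccr7). The MIG libraries differed by 0.02, 0.03 and −0.02 (log2) for Nsg2, Txk and Foxo1. They differed by 0.32, 0.32 and 0.23 for Actn1, Il6ra and Ccr7, against 0.68 for Tcf7.

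The calls of this list differed between tools. DESeq2 called 7 downward and 1 upward, and limma called 2 downward on log2(FPKM + 1) and 3 on log2(FPKM + 0.1), with 0 upward. Over all genes DESeq2 called 95 downward and 254 upward. The 2 limma fits called 4 and 10 downward and 40 and 71 upward over all genes. Both limma fits left out Ccr7 (adjusted p of 0.102 and 0.0679), Foxo1 (0.0657 and 0.0508) and Il6ra (0.0716 and 0.0625), and the first also left out Actn1 (0.0658). Some calls also changed when 1 library was left out. Foxo1 missed the threshold without BATF replicate 1 or 2. Its log2 fold change stayed at −0.59 and −0.63 in these fits, against −0.61 with all 4 libraries. Ccr7 missed the threshold without BATF replicate 2, where its log2 fold change was −0.65 against −0.77 with all 4. Il6ra missed it without MIG replicate 1, at −1.43 against −1.60. Downward calls differed between the fits with 1 library left out, in this list and over all genes. Both were most numerous without MIG replicate 2, so the list's numbers do not set it apart. The upward call of the list in each of these 4 fits was Slamf6. This is a receptor used with TCF-1 to mark progenitor-like T cells, named after its values were seen. Slamf6 stood at 17.2 and 10.5 CPM in MIG and 40.4 and 28.2 in BATF, opposite in direction to Tcf7, but missed the threshold in the fit of all 4, at 1.30 with an edgeR adjusted p of 0.0946. It passed with all 4 in DESeq2 (adjusted p = 1.85e-05) and in edgeR with no filter on low counts (0.00366), and not in limma (0.174 and 0.129). The 4 most abundant genes that did not pass were Ltb, Bcl2, Cxcr3 and S1pr1, with log2 fold changes of −0.27, −0.43, −0.02 and −0.22.

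Of 11 other T cell identity factors, edgeR called 0, again near the shares over all genes (0.884% upward, 0.208% downward). Before adjustment, 3 were higher and 1 lower at p under 0.05, a cutoff whose share over all genes was not counted. One gene passed upward in DESeq2, and limma on FPKM called 0. The median was −0.07. Ikzf1, the Ikaros gene, stood at 588 and 523 CPM in MIG and 556 and 502 in BATF, and Zfp36l2, Cbfb and Tcf3 had log2 fold changes of 0.07, 0.05 and −0.17. The 3 higher genes, named after their values were seen, were Runx1 (21.0 and 12.1 CPM in MIG, 42.8 and 27.9 in BATF), Zbtb7b (23.0 and 17.9, 44.2 and 34.9) and Gata3 (42.4 and 47.5, 50.9 and 59.8), and the lower one was Ikzf3 (174 and 190, 135 and 153). Zbtb7b, the CD4 lineage factor ThPOK, had an edgeR adjusted p of 0.0658 in all libraries and passed with any 1 library left out (adjusted p from 0.00635 to 0.0487). It was the gene that passed in DESeq2 (0.000138). Runx1 did not pass with all libraries in edgeR (adjusted p = 0.199), DESeq2 (0.434) or limma (0.301 and 0.265). In edgeR it passed when low counts were kept (0.0234) and when 1 library was left out, except BATF replicate 1 (0.160). Without MIG replicate 2 edgeR also called Tcf3 downward (log2 fold change −0.37, adjusted p = 0.0348). Cd4 itself stayed under 1 CPM in every library, and Cd8a stood at 659 and 750 CPM in MIG and 423 and 599 in BATF, a difference of −0.46 (log2) at an edgeR adjusted p of 0.337.

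**Figure D4:**
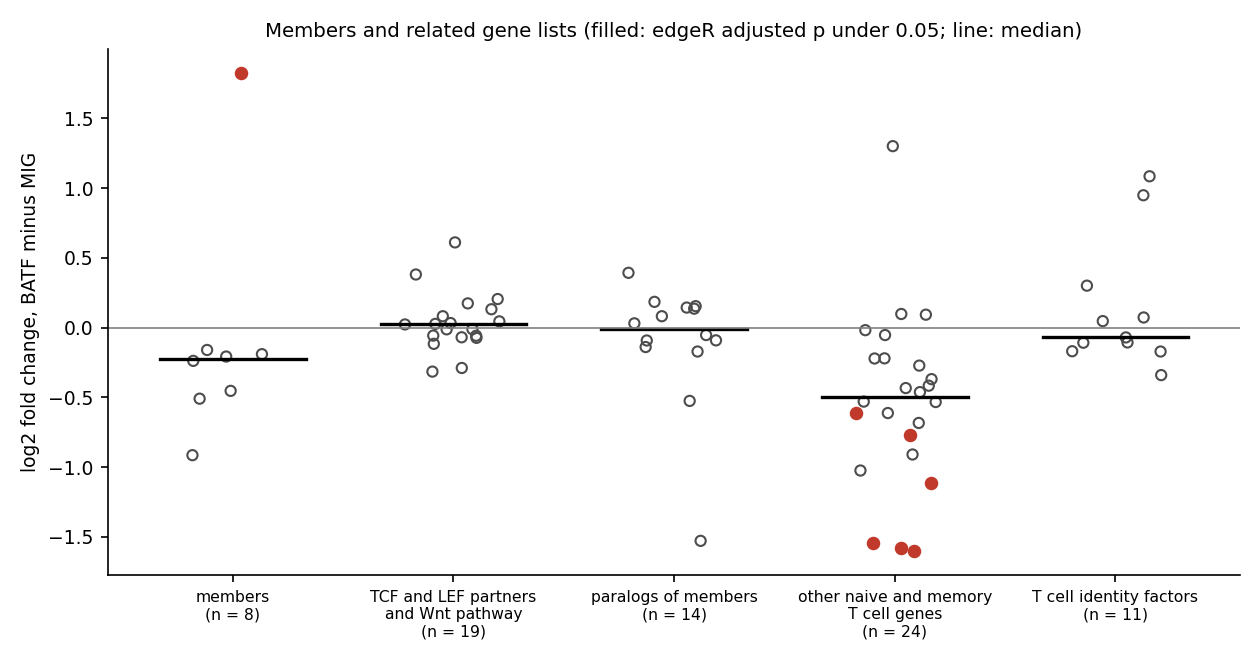
Log2 fold changes (BATF minus MIG) of the tested genes of the set and of 4 related lists, 1 point per gene, filled where the edgeR adjusted p is under 0.05, with the median as a line. Myb is the filled point of the set, the 6 filled points of the other naive and memory genes lie below 0, and the remaining lists have medians of 0.02, −0.01 and −0.07 with no filled point.

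Promoter sequence was taken from RefSeq (GRCm38.p6), whose build differs from the mm9 named in the submitters' processing notes, in windows of 250 bases before to 50 after each annotated start. Windows were held for 8 of the 9 genes, 18 in all, with more than 1 start for Tcf7, Lef1, Satb1 and Foxp1. The AP-1 letters TGANTCA (either strand), the word bound by BATF with JUN proteins, were in 0 of the 18 windows, against 7.81% of all 32851 windows. The related letters TGACGTCA were in 0 of them, against 1.79% of all. The absence says only that these letters are not in these windows. The TCF and LEF letters CTTTGAA or CTTTGTT (either strand) were in 6 of the 18 windows, in Satb1, Myb, Foxp1 and Bcl11b, against 10.6% of all windows; the Satb1 windows overlap and share 1 match. The letters CCGGAA for ETS factors and GTAAACA for forkhead factors were added after the other searches and were in 1 and 3 of the 18 windows, against 14.9% and 3.65% of all.

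The sequence before the start of Myb, the gene of the set that rose, is shown. These 250 bases hold none of the letters searched, and the matches of Myb lie after the start. This is not particular to Myb, as the windows of Lef1 and Igfbp4, which did not pass, hold none of the letters either. The Myb sequence spans chr10:21160985-21161234, minus strand, GRCm38.p6, and is printed 5′ to 3′ in lower case.

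Myb: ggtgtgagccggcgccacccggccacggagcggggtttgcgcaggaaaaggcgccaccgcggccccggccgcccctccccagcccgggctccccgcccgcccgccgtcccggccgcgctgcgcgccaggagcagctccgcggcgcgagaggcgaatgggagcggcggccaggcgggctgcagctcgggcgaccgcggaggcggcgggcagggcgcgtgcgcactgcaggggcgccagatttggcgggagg

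The short stretches below show the matches to the TCF and LEF letters in the set and the ETS match of Tcf7, so that they can be compared. Capitals mark the match, read 5′ to 3′ on the strand of the gene, which is the minus strand for all of them. A match is a description of letters and was not tested for binding.

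Bcl11b, chr12:108003487-108003513: aggccaagcaCTTTGAAgaagtgtgag

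Foxp1, chr6:99521172-99521198: cgcgcccagaAACAAAGtctcatgccc

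Foxp1, chr6:99266704-99266730: caagatcacaTTCAAAGgtagatctcc

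Foxp1, chr6:99266523-99266549: aaggcagtggCTTTGTTgtgtttagcc

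Satb1, chr17:51812186-51812212: acgggttccgCTTTGTTtttacgactc

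Myb, chr10:21160952-21160978: gtccaaacctCTTTGTTtgatggcatc

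Tcf7, chr11:52282604-52282629: ctggagtcacTTCCGGtgccctgacc

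The match of Myb lies at position 17 counted from its start and that of Bcl11b at −89. Part of the 250 bases before a start also lay in annotated exons of the same gene. This held for all 250 bases in both Satb1 windows with a match and for 188 in Bcl11b. In the Foxp1 windows with a match it was 169 and 17 bases, and in the Tcf7 window with the ETS match 67. Apart from Satb1, whether a match itself lay in an exon was not counted. Among the genes with a TCF and LEF match, Myb rose, and Bcl11b, Foxp1 and Satb1 had negative log2 fold changes that did not pass. Whether a match goes with a change was not tested.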

How the data were processed

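Poly(A) RNA of 2 MIG and 2 BATF libraries was sequenced; groups were read from the titles. The submitters' processing notes name TopHat2 2.1.1, Cufflinks 2.2.2, Cuffdiff and mm9. Strandedness and annotation: not given in the sources used here. Replicates 0 and 1 of each group in the deposited table are read here as the titles' 1 and 2. No label ties the numberings together, so the number only names a library. It gives estimated counts (fragments assigned to a gene, before scaling), a signal of fragments after the authors' scaling by library and FPKM, per the file headers; 97.6% of the deposited estimated counts were whole.

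Estimated counts were rounded and tested with edgeR 4.0.16 in R 4.3.3: filterByExpr, TMM (factors 0.989 to 1.01), glmQLFit and glmQLFTest without covariate, Benjamini-Hochberg adjustment over 13008 genes, threshold 0.05. The common biological coefficient of variation was 11.3%. CPM are TMM-scaled. The SE is the unshrunk coefficient over the square root of F. The script was tested on simulated counts. With 2 libraries against 2, an exact two-sided permutation test of 1 value cannot go below p = 0.333, so none was run. Alternatives were DESeq2 1.42.0, its size factors in edgeR, no count filter, limma 3.58.1 on log2(FPKM + 1) and log2(FPKM + 0.1), each library left out, and the replicate number as a block.

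The set, the 4 related lists and the rules were chosen with earlier results of these data known. The rule names, from each list, the called genes and at most 4 others by highest mean CPM. Outside that rule, Tle4, Bcl9l, Tcf7l1, Slamf6, Runx1, Zbtb7b, Gata3 and Ikzf3 were named after their values were seen. The nearest patterns are the 5 closest genes. The protein comparison of TCF-1 and LEF-1 was not made because no protein sequence was used here.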

Additional observations from a re-analysis of the deposited data

How the results depend on the processing

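The direction of Tcf7, Myb, Foxp1, Ets1, Bcl11b and Igfbp4 held in all 10 alternatives; that of Lef1 turned without MIG replicate 1 (0.239) and without BATF replicate 2 (0.020), and that of Satb1 without MIG replicate 1 (0.061). The call of Myb held in all 10. Over all genes, the 142 calls became 349 with no filter on low counts, 349 in DESeq2, 44 and 81 in limma on log2(FPKM + 1) and log2(FPKM + 0.1), and 248 to 589 with 1 library left out. In the set, the 1 call became 3 with no filter (Tcf7, Myb and Igfbp4), 2 in DESeq2 (Myb and Igfbp4) and 1 to 6 with 1 library left out. Without MIG replicate 2 the 6 were Tcf7, Lef1 (−0.475), Satb1 (−0.408), Myb, Bcl11b and Igfbp4. In the related lists, the 6 calls became 11 with no filter, 2 and 3 in the limma fits, and 8 to 17 with 1 library left out. The cause of these differences was not tested. The replicate number as a block left 1 residual degree of freedom. With it 1504 of the 13008 genes tested were called, and so were 5 of the set (Tcf7, Myb, Foxp1, Bcl11b and Igfbp4) and 25 of the lists. No label says that a number pairs libraries. The deviations of same-numbered libraries correlated at 0.181 over 13008 genes and at 0.430 over the 9361 with a mean of at least 5 CPM, to which all tested genes of the set belong. Depth limits Dapl1, with 2 to 9 fragments per library, and 2 libraries per group limit every p-value.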
